A study of Mus musculus with 2 samples.

Results

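The autophagy machinery was examined through 39 genes that build the autophagosome, load its cargo or act in the lysosome that receives it. They were chosen by name, from GENCODE M21 gene names, and all 39 were found in the gene table among 55536 named genes. The cells were inflammation-experienced regulatory T cells, CD4 T cells that restrain immune responses under the transcription factor Foxp3. They were primary cells from the strain Foxp3CreERT2 x Rosa26YFP, taken from an adult male at 6 months of age. In this strain a Cre recombinase fused to a modified oestrogen receptor is made under Foxp3 control, beside a yellow fluorescent reporter at Rosa26, and the labels also name a bone marrow hematopoietic cell as origin. How inflammation was induced, and how the cells were isolated, was not given in the sources used here. The labels give a single group of 1 biological replicate. Its polyadenylated RNA was sequenced in 2 technical libraries, and no control cells were analysed here. All values therefore describe these cells. Differences between the libraries are technical and show no effect of inflammation.

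Macroautophagy encloses cytoplasm, organelles or protein aggregates in a double membrane, the autophagosome, which then fuses with the lysosome. Initiation by the ULK kinase complex is followed by nucleation, in which a class III PI 3-kinase makes the lipid PI3P. Ubiquitin-like conjugation then attaches ATG8 proteins (LC3 and GABARAP) to the growing membrane, where cargo receptors bind them. In regulatory T cells autophagy is known for supporting lineage stability and survival, which in mouse models depend on Atg5 and Atg7.

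By TPM in the larger gene table the ATG8 genes held the highest median of the 8 steps, so their coding ends are shown first. ATG4 proteases cut each ATG8 protein behind a glycine, which is then joined to phosphatidylethanolamine. Each line gives the last 30 coding bases with the stop codon, 5′ to 3′, from the GENCODE M21 transcripts, with the last glycine codon of the coding sequence in capitals.
Map1lc3a-201: tacgcctcccaagaaaccttcGGCttctga
Map1lc3b-201: gagacattcGGGacagcaatggctgtgtaa
Gabarap-201: tacagtgatgaaagcgtctatGGTctgtga
Gabarap-202: ctacgaagagaggtggcgctccttccttga
Gabarapl1-201: tacagtgatgaaagtgtctatGGAaaatga
Gabarapl2-201: tacagcggagagaacacttttGGCttctga
In Map1lc3b-201 the glycine is codon 120 and 5 codons stand between it and the stop. In the first transcript shown for each of the other 4 genes, 1 codon does. Gabarap-202 has another coding end, and its last glycine codon, codon 95 of 106, lies 11 codons before the stop and outside the 30 bases. The coding sequences of Map1lc3a and Map1lc3b were identical at 77.53% of aligned bases and those of Gabarap and Gabarapl1 at 74.86%. Gabarapl2 shared 64.57% with Gabarap and 64.87% with Gabarapl1, and pairs of an LC3 gene with a GABARAP gene shared 57.43% to 64.47%.

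Reads assigned to named genes came to 15386113 in technical replicate 1 and 13604480 in technical replicate 2. Levels are in TPM, transcript abundances scaled for transcript length and to a fixed total per library, and are given for technical replicate 1 and then technical replicate 2. Detection required at least 1 TPM in each library, a level reached by 13511 of all named genes and 37 of the 39 autophagy genes. The regulatory T cell markers examined included the general T cell genes Cd3e, Cd4 and Trac. All 8 were detected (Foxp3 at 22.1 and 17.9 TPM, with 3.94 and 3.44 TPM in protein-coding transcripts, and Il2ra at 174.4 and 175.5 TPM). None of 4 B cell, 6 monocyte and macrophage, 4 neutrophil and 3 NK cell markers was, with summed levels of 3.24 and 2.50, 0.93 and 0.86, 0.52 and 0.50, and 0.50 and 0.89 TPM. Adgre1, Cd14, Fcgr1, Camp, Ncr1 and Klre1 had no read. The CD8 chain genes Cd8b1 (11.4 and 11.02 TPM) and Cd8a (2.52 and 2.35 TPM) were detected, and the share of any other cells in the levels below was not tested. In such bulk RNA, fewer cells of a type and less RNA per cell cannot be told apart.

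By TPM in the larger gene table the ATG8 genes stood highest among the autophagy genes and the lipid transfer genes lowest. The smaller gene table did not keep this order, as given below. The median of mean TPM was 188.5 TPM over the 5 ATG8 genes, 48.2 TPM over the 4 cargo receptor genes and 23.5 TPM over the 5 initiation genes. Over the 7 conjugation genes it was 23.3 TPM, over the 6 nucleation genes 17.7 TPM, over the 3 lysosome genes 17.7 TPM and over the 4 ATG4 genes 16.6 TPM. The 5 lipid transfer and PI3P effector genes had a median of 7.33 TPM. The median of all 39 was 17.3 TPM, beside 13.4 TPM for all genes at 1 TPM or more. Of the summed TPM of the 39 genes, the ATG8 genes held 47.5% and 47.4% and the cargo receptors 16.8% and 15.5%. Conjugation genes held 10.02% and 10.03% and initiation genes 5.80% and 6.27%.

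**Figure D1:**
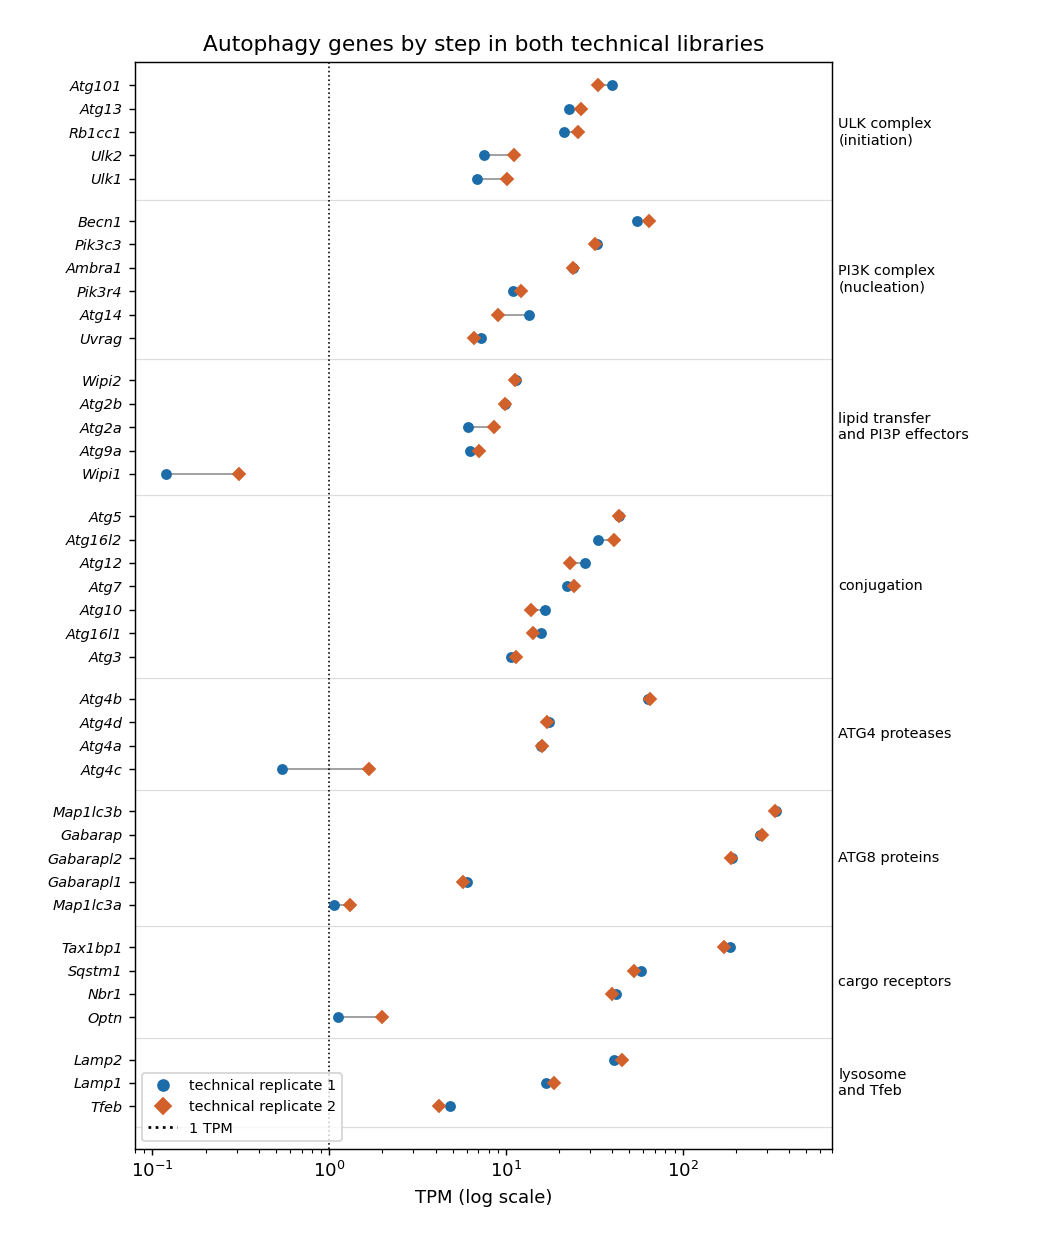
TPM (log axis) of each of the 39 genes in technical replicate 1 (circles) and technical replicate 2 (diamonds), grouped by step, with a dotted line at 1 TPM. Map1lc3b, Gabarap, Gabarapl2 and Tax1bp1 lie above 100 TPM in both libraries, and Wipi1 and Atg4c lie left of the line in at least 1 library.

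Initiation, conjugation and cargo receptor genes were compared by their medians in each library. Initiation genes had medians of 21.4 and 25.7 TPM and conjugation genes 22.1 and 23.1 TPM, so these steps were not separated by the spread between libraries. Cargo receptor genes had medians of 50.2 and 46.2 TPM, above both other steps in both libraries. Their 4 members ranged from 1.56 to 177.8 TPM on average, against 8.56 to 36.7 TPM for initiation and 11.05 to 43.5 TPM for conjugation, so the steps overlapped member by member. Counting only transcripts annotated as protein coding, the medians were 15.2 and 15.7 TPM for initiation, 12.8 and 10.7 TPM for conjugation, and 34.7 and 35.5 TPM for cargo receptors. On that scale initiation stood above conjugation in both libraries. Genes are not replicates, so no test was made between steps.

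In the ULK complex all 5 genes were detected, the non-kinase subunits above the kinases. Atg101, whose protein stabilises Atg13, stood at 39.9 and 33.4 TPM. Atg13, the regulatory subunit, stood at 22.9 and 26.8 TPM. The scaffold gene Rb1cc1 (FIP200) stood at 21.4 and 25.7 TPM, overlapping Atg13 over the libraries. The kinase genes were lower, Ulk2 at 7.50 and 11.2 TPM and Ulk1 at 6.90 and 10.2 TPM. Their ranges overlapped, and Ulk2 was 1.09 and 1.10 times Ulk1. In protein-coding transcripts this ratio was 1.05 and 0.96, so the order was the reverse in technical replicate 2. Both kinase genes lay below the 3 other subunits in both libraries.

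Of the nucleation complex, Becn1 had the highest gene level. Becn1 (ENSMUSG00000035086, mm10 chromosome 11, 101285952 to 101302286, minus strand), the regulatory core of the complex, stood at 55.2 and 64.8 TPM. Pik3c3, the lipid kinase, followed at 32.9 and 32.0 TPM. Ambra1, which links the complex to ubiquitin ligases, stood at 24.0 and 23.8 TPM. These 3 genes kept this order in both libraries. Pik3r4, the pseudokinase subunit, stood at 10.9 and 12.2 TPM. Of the alternative subunits, Atg14, which directs the complex to autophagosome formation, stood at 13.5 and 9.06 TPM, and Uvrag, which directs it to endosomes, at 7.22 and 6.64 TPM. Atg14 was above Uvrag in both libraries. For Atg14 the difference between libraries in TPM was not seen in reads, which were 385 and 359 counts.

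Lipid transfer and PI3P effector genes were low, and 1 of the 5 was not detected. Wipi2, which binds PI3P and recruits the conjugation machinery, stood at 11.4 and 11.2 TPM. Its paralog Wipi1 stood at 0.12 and 0.31 TPM, from 3 and 4 counts (exact 95% Poisson intervals 0.619 to 8.77 and 1.09 to 10.2 counts, which cover counting error only). The depth of these libraries thus does not show Wipi1 RNA to be absent. Atg9a, a lipid scramblase of the seed vesicles, stood at 6.24 and 7.06 TPM. The lipid transfer genes Atg2b (9.93 and 9.92 TPM) and Atg2a (6.07 and 8.58 TPM) stood in that order, which was the reverse in protein-coding transcripts, at 4.07 and 4.08 TPM for Atg2b and 5.92 and 8.28 TPM for Atg2a.

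All 7 conjugation genes were detected, within a range of 10.7 to 43.6 TPM. Atg5, the acceptor of Atg12, was highest at 43.6 and 43.4 TPM, and Atg12, the ubiquitin-like protein itself, stood at 28.2 and 23.1 TPM. Atg7, the activating enzyme of both conjugation chains, stood at 22.1 and 24.4 TPM. Its ubiquitin carriers were lower, with Atg10, which serves Atg12, at 16.6 and 14.0 TPM and Atg3, which serves the ATG8 proteins, at 10.7 and 11.4 TPM. Atg16l1, which places the Atg12-Atg5 conjugate on membranes, stood at 15.7 and 14.3 TPM. Its paralog Atg16l2 stood higher, at 33.4 and 40.9 TPM, a ratio of 2.12 and 2.87. In protein-coding transcripts this ratio was 1.47 and 1.34 (12.8 and 10.7 against 8.74 and 7.99 TPM). Retained-intron transcripts held 49.8% of the Atg16l2 TPM and 44.2% of the Atg16l1 TPM on average, and nonsense-mediated decay transcripts 17.9% and 0. By estimated counts, in which short transcripts weigh less, protein-coding transcripts held 78.0% and 67.2% for Atg16l2 and 71.4% and 63.7% for Atg16l1.

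Of the ATG4 proteases, which cut ATG8 proteins before lipidation and free them afterwards, Atg4b led with 63.5 and 65.6 TPM. Atg4d (17.5 and 17.2 TPM) and Atg4a (15.7 and 16.0 TPM) were lower in both libraries, with Atg4b at 3.63 and 3.82 times Atg4d. Atg4c stood at 0.54 and 1.69 TPM and did not reach the threshold in both libraries. In protein-coding transcripts Atg4b held 26.1 and 28.6 TPM, Atg4a 15.5 and 15.7 TPM and Atg4d 4.01 and 5.58 TPM. Of the Atg4b level, the short Atg4b-209 (420 nt) held 10.05 and 12.8 TPM and Atg4b-203 (513 nt) 9.35 and 9.53 TPM. The longer Atg4b-201 (4173 nt) held 6.74 and 6.26 TPM, below Atg4a-201 (15.5 and 15.7 TPM).

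The ATG8 genes fell into 3 abundant and 2 low members. Map1lc3b (ENSMUSG00000031812, mm10 chromosome 8, 121590361 to 121598760, plus strand), which encodes LC3B, stood at 337.8 and 333.6 TPM. Gabarap (ENSMUSG00000018567, chromosome 11, 69991143 to 69994951, plus strand) stood at 272.6 and 282.9 TPM and Gabarapl2 (ENSMUSG00000031950, chromosome 8, 111940703 to 111953612, plus strand) at 189.6 and 187.4 TPM. The order of these 3 was the same in both libraries, without overlap. Gabarapl1 stood at 6.04 and 5.72 TPM. Map1lc3a stood at 1.06 and 1.32 TPM, from 10 and 11 counts (exact 95% Poisson intervals 4.80 to 18.4 and 5.49 to 19.7 counts). All Map1lc3a reads were assigned to the processed transcript Map1lc3a-202, and the coding transcript Map1lc3a-201, whose end is printed above, held 0. The nearest paralogs of Map1lc3b and Gabarap by coding sequence, Map1lc3a and Gabarapl1, were thus the low members.

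Within Gabarap, the transcript with the other coding end led. Gabarap-202 held 152.9 and 142.5 TPM, from 1331 and 1096 estimated counts, and Gabarap-201, whose end keeps the glycine codon next to the last, held 67.1 and 64.8 TPM, from 1086 and 927 counts. The retained-intron transcript Gabarap-204 held 51.0 and 75.3 TPM. Gabarap-202 is shorter (750 against 1351 nt), so it leads by more in TPM than in counts. Whether single reads support this division was not tested. For Map1lc3b, unlike Gabarap, the leading transcript differed between TPM and counts. The short protein-coding Map1lc3b-205 held 173.1 and 196.7 TPM from 1542 and 1548 counts, and the longer Map1lc3b-201 held 107.9 and 106.5 TPM from 3329 and 2904 counts.

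Among cargo receptors, Tax1bp1 stood above Sqstm1. Tax1bp1 (ENSMUSG00000004535, chromosome 6, 52713729 to 52766780, plus strand), a receptor that binds ubiquitinated cargo, stood at 184.5 and 171.1 TPM. Sqstm1 (ENSMUSG00000015837, chromosome 11, 50199366 to 50210827, minus strand), which encodes p62, stood at 58.4 and 52.8 TPM. The ratio was 3.16 and 3.24, and it was 3.54 and 3.44 in protein-coding transcripts. These include the short Tax1bp1-207 (630 nt) at 74.6 and 67.0 TPM and Sqstm1-204 (953 nt) at 20.1 and 19.6 TPM. Nbr1, which acts with p62 on aggregates, stood at 42.1 and 39.7 TPM. Optn, optineurin, a receptor in mitophagy, stood at 1.13 and 1.98 TPM, from 36 and 33 counts. The 4 receptor genes kept this order in both libraries.

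At the lysosome, Lamp2, a membrane protein needed for fusion and for chaperone-mediated autophagy, stood at 41.0 and 45.2 TPM. Lamp1, its paralog, stood at 16.8 and 18.7 TPM, so that Lamp2 was 2.44 and 2.42 times as high. Tfeb, a transcription factor of lysosomal and autophagy genes, stood at 4.81 and 4.21 TPM, from 83 and 89 counts. In the order of all 39 genes by mean TPM, 23 of the 38 neighbouring pairs overlapped over the libraries. The 5 highest places, in falling order Map1lc3b, Gabarap, Gabarapl2, Tax1bp1 and Atg4b, were separated from each other. The range of Atg4b overlapped that of Becn1 after it.

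A gene level can include RNA that does not encode the protein, so the transcripts of each gene were grouped by their GENCODE type. Retained-intron and nonsense-mediated decay types mark transcripts that are not expected to give the full protein. The protein-coding type also holds short transcripts, such as Atg4b-209 (420 nt) and Tax1bp1-207 (630 nt), so it is not a measure of full-length RNA. Protein-coding transcripts held under 50% of the TPM in both libraries for 9 of the 39 genes and over 90% in both for 11. Among the 37 detected genes the median coding share was 67.6%, and 10 (27.0%) had a share under 50% on average. Among all 10288 protein-coding genes at 1 TPM or more the median was 84.1%, and 18.9% had a share under 50%. By estimated counts the coding shares differ, at 78.0% and 67.2% for Atg16l2 and 6.89% and 16.5% for Becn1. The medians of the steps fell accordingly in protein-coding transcripts, for ATG8 genes from 188.5 to 49.8 TPM, where Gabarapl2 was the middle gene.

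Becn1 and Gabarapl2 were among the genes whose levels differed most between the scales. Of Becn1 TPM, protein-coding transcripts held 10.7% and 28.3%, that is 5.92 and 18.4 TPM. Becn1-201, annotated as subject to nonsense-mediated decay, led with 33.4 and 29.6 TPM, from 861 and 673 counts. In coding transcripts Becn1 therefore stood below Pik3c3 (32.9 and 31.2 TPM) and, in technical replicate 1, also below Ambra1 (18.2 TPM) and Atg14 (12.04 TPM). For Gabarapl2 the retained-intron transcript Gabarapl2-203 held 138.2 and 138.3 TPM, from 1202 and 1062 counts. The coding Gabarapl2-201 held 50.4 and 49.2 TPM, from 1020 and 878 counts. Uvrag had 0.58 and 1.00 TPM, Pik3r4 3.21 and 3.44 TPM and Atg10 9.64 and 5.53 TPM in coding transcripts. Map1lc3b (333.4 and 330.7 TPM), Tax1bp1 (178.0 and 165.3 TPM) and Atg101 (all of its TPM) were nearly the same on both scales. The leading transcript by TPM was not a coding one for 9 genes and by estimated counts for 5, and it differed between the libraries for 10, so single transcripts are less certain than gene levels.

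**Figure D2:**
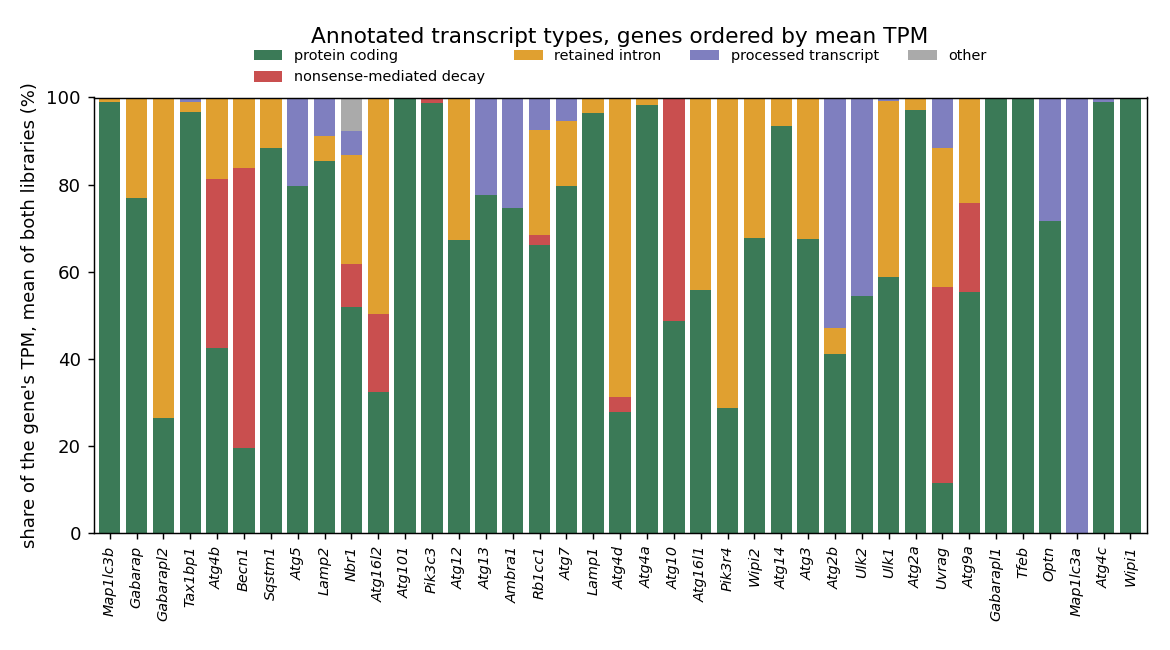
Share of each gene's TPM (%, mean of both libraries) by annotated transcript type, stacked to 100%, with genes ordered from left by mean TPM. Green marks protein-coding transcripts, which hold 98.9% for Map1lc3b, 26.4% for Gabarapl2, 19.5% for Becn1 and 0 for Map1lc3a.

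Reads can also be divided between a gene and its near-identical copies. Read length was 50 nt, as given by the difference of 49 nt between length and effective length, so every stretch of 50 bases of the 39 genes' transcripts was searched in the transcripts of all other genes. For 14 genes no stretch was shared and for 8 over 10% were. The highest shares were in Atg4a, with 51.2% shared with Atg4a-ps (1.93 and 2.28 TPM), and in Becn1, with 36.8% shared with Cntd1 (0.53 and 0.50 TPM), which overlaps it on the other strand. The strand setting of the counting was not given in the sources used here, so reads of Becn1 and Cntd1 cannot be told apart by strand. The other 6 were Atg9a, Gabarapl1, Uvrag, Sqstm1, Atg4d and Gabarapl2.

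The copies with a high level of their own were those of Map1lc3b and Gabarapl2, named here after their values were seen. Gm6055, a processed pseudogene on chromosome 14 (mm10, 48079375 to 48079752), matched the Map1lc3b coding sequence at 99.74% of 378 bases and held 84.8% of its 50-base stretches. The only difference was G206A, counted from the first base of the start codon, with the base of Map1lc3b first. Of the stretches of all Map1lc3b transcripts Gm6055 held 3.67%. In the short Map1lc3b-205 alone, 37.8% were shared with other genes. The 30 coding bases around the difference, with the differing base in capitals, show how little separates reads from the coding sequence.
Map1lc3b: tcaagataatcagacGgcgcttgcagctca
Gm6055: tcaagataatcagacAgcgcttgcagctca
Gm6055 stood at 140.8 and 127.4 TPM, from 575.6 and 460.1 estimated counts, by TPM above all but 4 of the autophagy genes. It is short, at 378 nt, so it stands higher in TPM than in counts. By counts it lay below more of them, such as Atg7 (648 and 533) and Atg16l2 (700 and 714). Map1lc3b and its 3 copies (Gm6055, Gm6054 and Gm12727) together held 482.0 and 463.5 TPM. The copies took 9.53% of these reads in technical replicate 1 (95% bounds by Clopper-Pearson 8.81 and 10.3) and 8.83% in the other library (8.08 and 9.62). These bounds, and those for Gabarapl2 below, cover counting error only, not how estimated counts were divided between gene and copies. Gm3724, a processed pseudogene on chromosome 5 (24118316 to 24118664), differed from Gabarapl2 at 2 bases, G159T and T300G, and stood at 22.5 and 13.5 TPM. The bases around the first difference are given.
Gabarapl2: gtacttggtcccctcGgacatcactgtggc
Gm3724: gtacttggtcccctcTgacatcactgtggc
Gabarapl2, Gm3724 and Gm5829 each had estimated counts that were not whole, and Gm6051 and Gm6059 had 0. Together the gene and these 4 copies summed to 2321.0 and 1987.0, of which the copies took 3.92% (3.17 to 4.79) and 2.32% (1.70 to 3.08). Whether the copies are transcribed was not tested. Gabarap shared no 50-base stretch with another gene.

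**Figure D3:**
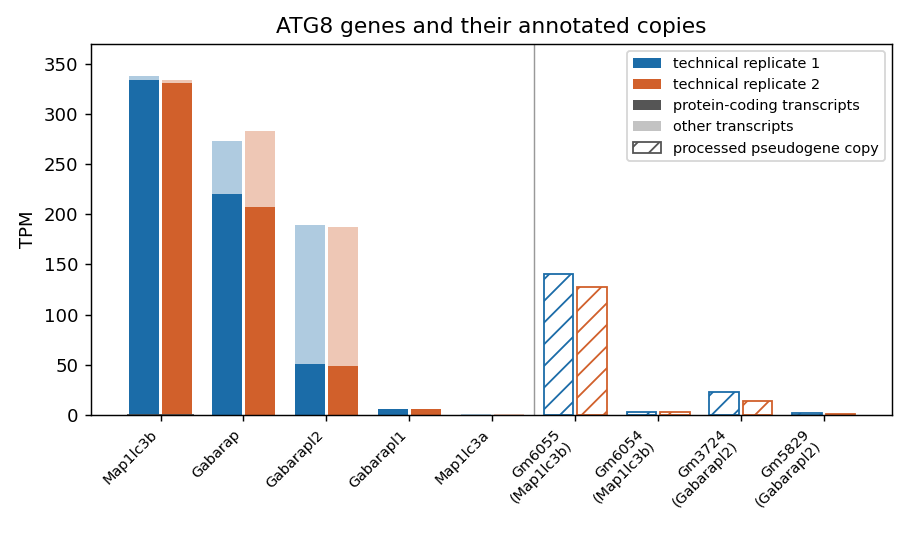
TPM of the 5 ATG8 genes (solid for protein-coding and pale for other transcripts) and of the 4 annotated pseudogene copies with reads (hatched, with their parent gene in brackets) in technical replicate 1 (blue) and technical replicate 2 (orange). Gm6055 reaches 140.8 and 127.4 TPM, and coding transcripts make up 50.4 and 49.2 TPM of Gabarapl2.

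The authors' smaller gene table, with GENCODE M4 genes, placed the same genes differently. It held 3581589 and 3271045 counts, and the genes were compared by log2((CPM + 1) in the smaller over the larger table). Map1lc3b had 100 and 96 counts there, against 5604 and 4843 in the larger table, log2 ratios of -3.80 and -3.70. Gabarapl2 had 30 and 30 counts against 2230 and 1941, log2 ratios of -4.10 and -3.96. Gabarap had 712 and 687 counts, with log2 ratios of -0.10 and -0.09. Atg12 (-1.15 and -1.05), Atg4a (-0.99 and -1.17), Wipi2 (-0.75 and -0.33) and Gabarapl1 (-0.62 and -0.49) were also lower. Tax1bp1 (1.02 and 1.03) and Sqstm1 (0.83 and 0.70) had ratios above 0, the usual case for genes with such counts, as given below.

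Losses of this size also occurred in other genes. Among 2887 matched genes with 1000 to 10000 counts the median log2 ratio was 0.41, and 8.52% lay below -2, as did 2 of the 13 autophagy genes in that range. Among 5870 genes with 100 to 1000 counts the median was 0.70, beside 0.68 for 21 autophagy genes, none of which lay below -2. Among 173 genes with at least 10000 counts the median was -2.45, and 56.6% lay below -2. A ratio above 0 was thus the usual case in both lower ranges. These values are from technical replicate 1. Of the genes named as lower in the smaller table, Atg4a shared 51.2%, Gabarapl1 23.1% and Gabarapl2 12.2% of their 50-base stretches with other genes. Map1lc3b shared 6.01%, Wipi2 0.81%, Atg12 0.32% and Gabarap none, and Map1lc3b and Gabarapl2 had processed pseudogene copies. Becn1 (36.8% shared, log2 ratios 0.91 and 0.89), Atg9a (30.5%, 0.34 and 0.26), Sqstm1 (15.5%) and Atg4d (14.6%, 0.68 and 0.35) had ratios above 0. Uvrag (17.4%) had a ratio of 0.29 in technical replicate 1 and -0.11 in technical replicate 2. These shares mix orientations. In the same orientation as the other gene, Atg4a shared 51.2%, Atg9a 30.2%, Gabarapl2 12.2%, Map1lc3b 5.77%, Uvrag 1.28% and Becn1 0.13%. Gabarapl1, Sqstm1 and Atg4d shared 0 in that orientation, so their sharing lay on the other strand. The part of shared sequence in the difference between tables was not tested. The place of Map1lc3b and Gabarapl2 among the highest autophagy genes thus depends on the table. So does the order of the steps. In CPM of the larger table the middle ATG8 gene, Gabarapl2, held 159.8 and 158.0, and the middle lipid transfer gene, Atg2b, 28.2 and 25.6. In the smaller table Gabarapl2, again the middle ATG8 gene, held 8.39 and 9.18 CPM. The middle lipid transfer gene there, Wipi2, held 26.3 and 30.6 CPM. CPM is not scaled for transcript length.

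**Figure D4:**
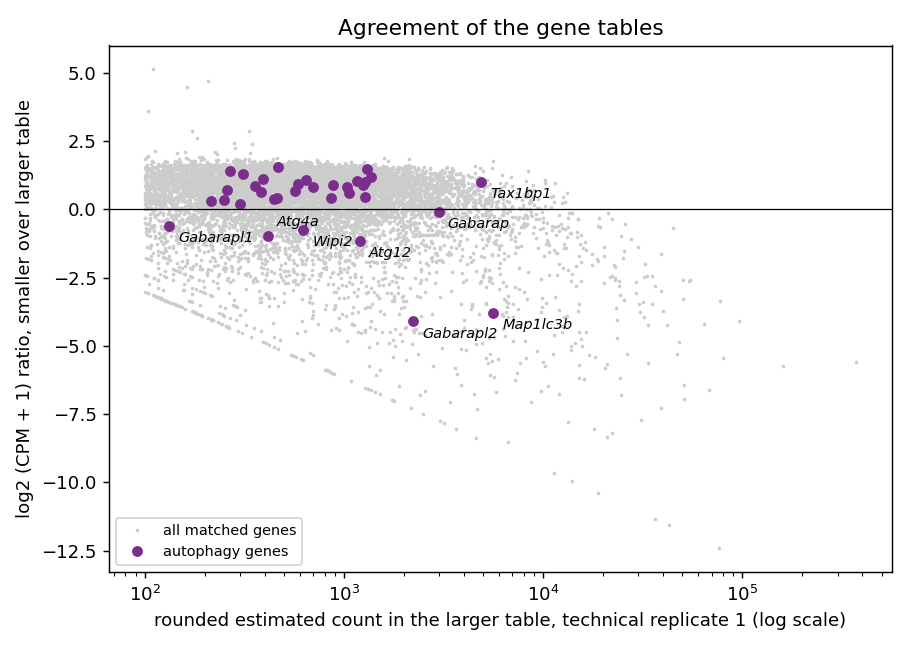
Log2 ratio of CPM + 1 in the smaller over the larger gene table against the count in the larger table (log axis), technical replicate 1, for genes with at least 100 counts in the larger table. Grey points are all matched genes and purple points autophagy genes, of which Map1lc3b (-3.80) and Gabarapl2 (-4.10) lie lowest.

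To measure the technical error of these levels, the libraries were compared gene by gene with a two-sided exact binomial test on rounded counts. It compares the reads of these libraries and no conditions. Of the 39 genes 38 had enough counts, and 10 (26.3%) were called at an adjusted p of 0.05, 7 higher (18.4%) and 3 lower (7.89%) in technical replicate 2. Over all genes tested the same rule called 19.2%, 9.42% higher and 9.78% lower. With 38 genes, the share called lies near this background and is no result about autophagy genes. The median log2 ratio of TPM + 1 over the 39 genes was 0.02. With the common dispersion fitted by edgeR 1 of the 10 remained called, where 1.8% of all genes were, and 2 genes had an unadjusted p under 0.05. In the smaller table the binomial test called 2 of 37, where it called 6.57% of all genes.

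Atg4c was the gene called by each of these tests, and the only one past 2-fold. It had 21 and 50 counts, and its log2 ratio was 1.41 in the exact binomial test (adjusted p 0.00127), with an adjusted p of 0.0444 in edgeR. In the smaller table it had 10 and 27 counts (exact binomial adjusted p 0.0433). Atg2a had 466 and 578 counts, a log2 ratio of 0.49, and was called in the smaller table too, with 357 and 462 counts (exact binomial adjusted p 0.000174). The other 8 differed by less than 0.41 on the log2 scale. Pik3r4 (0.39), Ulk1 (0.32), Atg4d (0.25), Lamp2 (0.23) and Atg16l2 (0.20) were higher in technical replicate 2. Atg10 (-0.40), Atg101 (-0.29) and Tax1bp1 (-0.10) were lower.

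**Figure D5:**
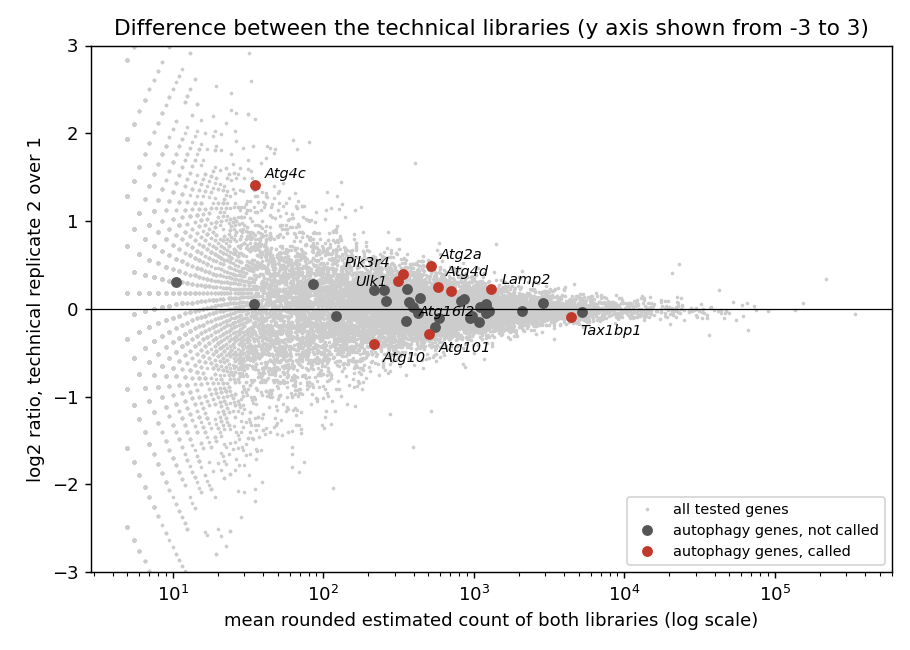
Log2 ratio of technical replicate 2 over 1 against the mean rounded count (log axis) for all tested genes (grey) and for autophagy genes that were called (red) or not called (dark grey) by the exact binomial test. Atg4c lies at 1.41 and the other called genes lie between -0.40 and 0.49.

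The machinery around the core was described by 6 further gene lists. In the control of initiation by mTORC1, which inhibits it, and AMPK, which promotes it, 12 of 14 genes passed detection, and the list's median was 13.3 TPM. The AMPK subunit gene Prkag1 (96.0 and 82.8 TPM), the mTORC1 activator gene Rheb (73.4 and 76.3 TPM) and the AMPK subunit gene Prkab1 (31.1 and 30.7 TPM) were highest, with Rheb at 38.99 and 42.5 TPM in protein-coding transcripts. Akt1s1, an mTORC1 inhibitor, stood at 0.83 and 2.44 TPM. The AMPK catalytic subunit gene Prkaa2 had no read, which allows up to 3 counts, or 0.195 and 0.221 CPM. Of 13 tested, none was called higher and 2 were called lower in technical replicate 2, beside 9.42% higher and 9.78% lower over all genes.

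All 10 further autophagosome factors were detected, at a median of 24.2 TPM. Of 10 tested, 1 was called lower (9.78% of all genes). Vmp1, a membrane protein of the endoplasmic reticulum, reached 374.8 and 370.3 TPM, but 86.9 and 78.5 TPM in protein-coding transcripts. Tecpr1 (55.3 and 57.6 TPM) and Sh3glb1 (46.5 and 46.7 TPM) followed, of which Tecpr1 held 33.2 and 33.4 TPM in coding transcripts, below Sh3glb1 (46.5 and 46.7 TPM). All 12 genes of fusion with the lysosome were detected too, at a median of 22.7 TPM. Of 12 tested, 3 were called lower (9.78% of all genes) and none higher (9.42%). The SNARE gene Vamp8 (251.7 and 258.1 TPM), the small GTPase gene Rab7 (201.8 and 203.4 TPM) and the tethering subunit gene Vps16 (186.2 and 172.7 TPM) were highest. Vps16 held 40.3 and 43.5 TPM in protein-coding transcripts.

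Receptors for the turnover of organelles had 13 of 16 genes detected, at a median of 41.2 TPM. Of 13 tested, 1 was called higher (9.42% of all genes) and 1 lower (9.78%). The mitophagy receptor gene Bnip3l led with 330.5 and 334.7 TPM, of which 56.9 and 52.9 TPM lay in protein-coding transcripts. Fkbp8, another mitophagy receptor gene, stood at 98.8 and 105.1 TPM, and the endoplasmic reticulum receptor gene Sec62 at 79.1 and 73.4 TPM. In protein-coding transcripts Fkbp8 (65.3 and 69.5 TPM) stood above Bnip3l, and Sec62 held 33.7 and 28.8 TPM. The glycogen receptor gene Stbd1 (0.05 and 0 TPM) and Wdfy3 (0 and 0.01 TPM) were among those below the threshold.

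Genes of lysosomal hydrolases, proton pump subunits and other lysosomal proteins were all detected, 22 of 22, at a median of 59.9 TPM. Of 22 tested, 1 was called higher (9.42% of all genes) and 4 lower (9.78%). The cathepsin genes Ctsb (420.6 and 407.5 TPM), Ctss (333.6 and 317.3 TPM) and Ctsd (212.2 and 210.1 TPM) led. In protein-coding transcripts Ctsb held 131.9 and 127.1 TPM, below Ctss (333.6 and 317.3 TPM) and Ctsd (211.3 and 209.1 TPM). Of Tfeb's family and its regulators, 5 of 7 genes passed detection, with a list median of 8.66 TPM. Of 6 tested, none was called higher (9.42% of all genes) and 2 lower (9.78%). The repressor gene Zkscan3 (31.3 and 28.5 TPM) and the forkhead factor gene Foxo1 (24.2 and 23.3 TPM) led, and the Tfeb paralog Tfe3 stood at 9.63 and 7.71 TPM. In protein-coding transcripts Zkscan3 (20.6 and 20.8 TPM) lay below Foxo1, and Tfe3 held 7.94 and 3.02 TPM. The family members Tfec (0 and 0.16 TPM) and Mitf (0.42 and 0 TPM) were not detected. Mitf had 22 and 0 counts and was called by the exact binomial test (adjusted p 3.80e-05). With the count of 0 set at 3 counts, Mitf was 6.48-fold lower in technical replicate 2. This takes the 22 counts as exact, so it is no lower bound on the difference.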

How the data were processed

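Each library had a larger gene table and a transcript table on mouse genome mm10 with GENCODE M21, and a smaller gene table with GENCODE M4, per the text deposited with each library. The authors deposited estimated counts and TPM per gene and transcript, and each transcript's percent of its gene's TPM, per the file headers. TPM sums to a fixed total over genes, transfer RNA, ERCC and phiX entries. Credibility bounds, recorded as signal values because the authors deposited them without a fixed sum, were not used. The smaller table held whole-number counts, as the authors deposited them. The aligner, quantifier and strand setting are not given in the sources used here. Fragments were sheared to 100 to 300 bp, per the labels.

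The members and lists were chosen with earlier results of these data known. All 39 genes were named. Of each further list, the 3 highest, those below threshold and those called past 2-fold were named. One gene that this rule would name is not reported here. Entries without a gene name (0.174% and 0.158% of counts) were left out. Estimated counts were rounded. The exact binomial test used genes with at least 10 summed counts, TMM library sizes (edgeR 4.0.16, R 4.3.3) and Benjamini-Hochberg adjustment at 0.05. It assumes read sampling alone, while the libraries had a mean index of dispersion of 4.98. edgeR's common dispersion (coefficient of variation 0.105) was fitted to both libraries with an intercept only. Tested on simulated Poisson counts for technical replicate 2 against 1 over 16868 genes, the binomial test recovered 65% of 2-fold and 97% of 4-fold changes, with 5 false calls. These simulated counts hold read sampling alone, as the test assumes, so they do not give its rate of false calls in the real libraries. Of 22457 genes in the smaller table, 22195 matched by identifier. Coding sequences were joined from GENCODE M21 exons. Other computations used Python 3.11.15, pandas 2.3.3, numpy 2.4.6 and scipy 1.17.1. Alternatives were other library sizes, filters, tests and tables, posterior mean TPM, protein-coding transcripts and single libraries.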

Additional observations from a re-analysis of the deposited data

How the results depend on the processing

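No spread between animals could be measured, and with 2 libraries of 1 sample no SD tells how levels vary between mice. The number of autophagy genes called between libraries was 10 with total counts (3316 of 17334 genes over all) and with median-of-ratios size factors (3374 of 17334). It was 10 with a filter of 50 counts (2842 of 12543) and 8 with no filter (2802 of 29305). It was 1 with edgeR's common dispersion (312 of 17334) and 2 in the smaller table (726 of 11051). The share over all genes thus changed with the setting too. Detected genes numbered 38 at 0.5 TPM, 34 at 5 TPM and 37 with posterior mean TPM. The median log2 ratio over the 39 genes stayed above 0 at 0.02 with a pseudocount of 0.1 TPM and at 0.05 with TMM-normalized CPM. In protein-coding transcripts only, medians were 15.5 TPM for initiation, 11.3 for nucleation, 4.08 for lipid transfer, 11.8 for conjugation, 10.2 for ATG4, 49.8 for ATG8 and 35.1 for cargo receptor genes, lower by construction since transcripts are left out. With posterior mean TPM, medians moved to 16.9 TPM for nucleation, 15.4 for ATG4, 166.6 for ATG8 and 15.9 for lysosome genes, and the cause was not tested. With 1 library left out, medians ranged from 21.4 to 25.7 TPM for initiation, 18.0 to 18.7 for nucleation, 6.24 to 8.58 for lipid transfer, 22.1 to 23.1 for conjugation, 16.56 to 16.6 for ATG4, 187.4 to 189.6 for ATG8, 46.2 to 50.2 for cargo receptor and 16.8 to 18.7 for lysosome genes. A median of means can lie outside both, as for nucleation at 17.7 TPM. Adding the annotated copies, a choice made after seeing the data, raised the summed ATG8 level from 809.0 to 965.2 TPM. The copies are short, so they weigh more in TPM than in counts.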
